A study of Mus musculus with 6 samples.

Results

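The Schlafen genes of the mouse were measured here in DN3 thymocytes of Hspa9 cKO and WT mice, in 3 Hspa9 cKO and 3 WT libraries. The 7 genes described, Slfn1, Slfn2, Slfn3, Slfn4, Slfn5, Slfn8 and Slfn9, were taken by name, with no threshold on their values but with earlier results of these data known; they are protein-coding genes of one Schlafen cluster on chromosome 11, which also holds Slfn14 and the pseudogene Slfn10-ps. They are 7 of the genes in tables in which 11833 genes have a level; 6 of the 7 are listed in at least 1 library. DN3 cells are immature T cell precursors that lack CD4 and CD8 and rearrange the T cell receptor beta gene; they were sorted as Lin-, CD4-, CD8-, CD44- and CD25+ cells. Hspa9 encodes GRP75, the Hsp70 chaperone of the mitochondrial matrix, and the stated purpose was to learn its role in early thymocyte development. Hspa9 cKO animals carry a conditional deletion of that gene, and WT animals are wild type. All animals were 5 weeks old, and the treatment label of both groups is no treatment. The Cre driver, the strain, the sex and any pooling are not stated in the labels. Nor do the labels state that a group's libraries are separate animals; p-values then speak only of the spread among these libraries, which may be technical.

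Schlafen proteins were named, after the German word for sleeping, for the growth arrest that Slfn1 causes when it is forced on in mouse thymocytes. The short members Slfn1 and Slfn2 carry little beyond the Schlafen core domain, the intermediate members Slfn3 and Slfn4 add a linker region, and the long members Slfn5, Slfn8 and Slfn9 add a helicase-like part at the carboxyl end. Several members bind or cleave transfer RNA: mouse Slfn2 shields transfer RNA from cleavage under oxidative stress in T cells, and human SLFN11 and SLFN13 cut it. Several are also induced by type I interferon, which acts through its receptor, the JAK kinases and a transcription factor complex containing IRF9 that binds a DNA motif called the interferon-stimulated response element. In T cells the family is best known for Slfn2, without which mouse T cells do not stay quiescent.

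The tables give FPKM, fragments scaled by transcript length and by library size, for transcript starts, transcript ends and splicing events. FPKM is already divided by length, so levels of different genes may be set side by side. A gene's level is the sum of its start events, and an event that a table does not list is counted as 0, which can also be a failed estimate. No read counts are given, so the depth of the libraries is unknown. The level of Hspa9 summed over starts did not separate the groups, with 117, 124 and 110 FPKM in Hspa9 cKO libraries and 105, 121 and 122 FPKM in WT libraries (log2 change 0.01 ± 0.09 SE, limma adjusted p = 0.951). Its exons did: transcripts that skip a block of Hspa9 exons stood at 76.9, 89.4 and 68.9 FPKM in Hspa9 cKO libraries, against 0, 12.3 and 17.0 FPKM in WT libraries, and transcripts that include the block at 24.9, 16.8 and 25.2 FPKM in Hspa9 cKO libraries, against 105, 109 and 105 FPKM in WT libraries. All 6 libraries thus fit their labels at the targeted gene. Correlations of log2 levels between libraries were 0.954 to 0.962 within groups and 0.929 to 0.937 across groups, and each table holds 90561 to 90970 events in Hspa9 cKO libraries and 87403 to 89771 in WT libraries.

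The promoter sequences shown here are those of the genes whose values are described first, Slfn5, Slfn8, Slfn9 and Slfn2. They are the 250 bases before each RefSeq start (GRCm38.p6, the build of the tables), and all 7 genes were matched to the RefSeq promoter table by symbol. Capitals mark a match to the interferon-stimulated response element, searched as TTTC, any 2 bases and TTTC again, or its reverse GAAA, any 2 bases and GAAA, so that both strands were covered. The Slfn5 window lies at chr11:82951852-82952101 on the plus strand, the Slfn8 window at chr11:83020811-83021060 on the minus strand, the Slfn9 window at chr11:82991831-82992080 on the minus strand and the Slfn2 window at chr11:83064862-83065111 on the plus strand.
Slfn5: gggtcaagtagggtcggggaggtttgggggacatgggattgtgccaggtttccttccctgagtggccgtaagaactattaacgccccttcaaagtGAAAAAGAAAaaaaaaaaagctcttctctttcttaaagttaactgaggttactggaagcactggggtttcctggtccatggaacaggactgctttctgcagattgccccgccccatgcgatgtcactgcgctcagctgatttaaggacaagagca
Slfn8: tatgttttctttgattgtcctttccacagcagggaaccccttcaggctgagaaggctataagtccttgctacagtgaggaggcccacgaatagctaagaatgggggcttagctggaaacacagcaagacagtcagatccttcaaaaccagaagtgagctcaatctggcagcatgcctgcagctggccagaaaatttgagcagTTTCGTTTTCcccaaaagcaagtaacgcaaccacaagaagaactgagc
Slfn9: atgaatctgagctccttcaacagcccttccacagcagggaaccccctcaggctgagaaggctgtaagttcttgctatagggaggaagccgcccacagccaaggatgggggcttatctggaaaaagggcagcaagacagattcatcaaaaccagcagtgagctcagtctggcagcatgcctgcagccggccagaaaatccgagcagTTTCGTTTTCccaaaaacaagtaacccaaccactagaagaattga
Slfn2: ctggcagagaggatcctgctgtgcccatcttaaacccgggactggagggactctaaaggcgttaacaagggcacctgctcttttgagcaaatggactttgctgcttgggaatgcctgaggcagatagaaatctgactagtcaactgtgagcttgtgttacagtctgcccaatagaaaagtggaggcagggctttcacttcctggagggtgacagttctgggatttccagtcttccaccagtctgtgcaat

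The 3 long-form genes each hold a match, and Slfn1, Slfn2, Slfn3 and Slfn4 hold none in the same window. The Slfn8 and Slfn9 windows share the same 10 letters, TTTCGTTTTC, beginning 48 bases before the RefSeq start of Slfn8 and 45 bases before that of Slfn9, and the aligned windows are identical at 204 of 255 columns (80.0%). The Slfn5 match is GAAAAAGAAA, beginning 155 bases before the RefSeq start. For comparison, 978 of 32851 RefSeq promoter windows of this length hold the motif (2.98%). Counted by gene, 936 of 27025 genes hold it in a window (3.46%), as do 12 of the 32 genes with a window on a list of interferon-stimulated genes (37.5%). A gamma-activated sequence, the motif known from interferon gamma responses, searched as TTC, any 3 bases and GAA, which reads the same on both strands, was in none of the 7 genes' windows and in 7.02% of all windows. A match of letters is not a measured binding site, and a missing match says only that these letters are not in this window.

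Of the 5 Schlafen genes that could be tested, Slfn2 and Slfn5 rose in Hspa9 cKO cells and none fell. Slfn9 stood higher in every Hspa9 cKO library without passing the adjusted threshold, Slfn8 and Slfn3 overlapped between the groups, Slfn1 was near 0 and Slfn4 was not listed in any library. Among all 8883 tested genes 8.34% were called higher and 5.8% were called lower (limma on log2(FPKM + 1), Benjamini-Hochberg adjusted p under 0.05). Of the 2 members called higher, Slfn5 passed the filter on low values only through its Hspa9 cKO libraries; of the 112 tested genes with all 3 Hspa9 cKO libraries and no WT library at 1 FPKM or more, 64 were called higher, so the count of members is a description and supports nothing. The 3 Hspa9 cKO values lay above all 3 WT values for Slfn2, Slfn5 and Slfn9, which is the case for 23.2% of all tested genes; in either direction, 39.1% of tested genes had groups that did not overlap. An exact two-sided permutation test of 3 against 3 libraries cannot give a p under 0.1, the value it gave for each of those 3 genes.

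Slfn2 (ENSMUSG00000072620, chr11:83065112-83070678, plus strand, mm10), the short member needed for T cell quiescence, had 6.53, 6.52 and 6.29 FPKM in Hspa9 cKO libraries, against 2.89, 2.95 and 3.45 FPKM in WT libraries. The lowest Hspa9 cKO library was well above the highest WT library. The means were 6.44 ± 0.138 FPKM in Hspa9 cKO cells and 3.10 ± 0.307 FPKM in WT cells (SD, n = 3 each), a ratio of 2.08. The log2 change of FPKM + 1 was 0.86 ± 0.10 (SE; 95% interval 0.62 to 1.11), with a limma adjusted p of 0.00626. The gene has a single start and a single end, which carry identical values in every library. An antisense gene, Gm20234, overlaps Slfn2, and the labels do not say whether the libraries keep the strand, so reads of Slfn2 and Gm20234 may not have been told apart.

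Slfn5 (ENSMUSG00000054404, chr11:82951349-82964840, plus strand), a long-form member that in human cells is induced by type I interferon, had 2.45, 2.02 and 2.22 FPKM at its starts in Hspa9 cKO libraries. In WT libraries it was not listed at a start in replicate 1 and had 0.101 and 0.249 FPKM in replicates 2 and 3. The 3 Hspa9 cKO libraries were thus far above the 3 WT libraries, in which the gene was barely listed. The ends gave 2.44, 2.02 and 2.22 FPKM in Hspa9 cKO libraries, against 0.527, 0 and 0.248 FPKM in WT libraries, so WT replicate 1 lists an end without a start and WT replicate 2 a start without an end. The log2 change of FPKM + 1 at the starts was 1.54 ± 0.15 (SE; 95% interval 1.17 to 1.897), with a limma adjusted p of 0.00376. The size depends on the pseudocount, since the WT values are so low: with 0.1 in place of 1 it was 3.60. No WT library reached the filter of 1 FPKM at this gene.

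**Figure D1:**
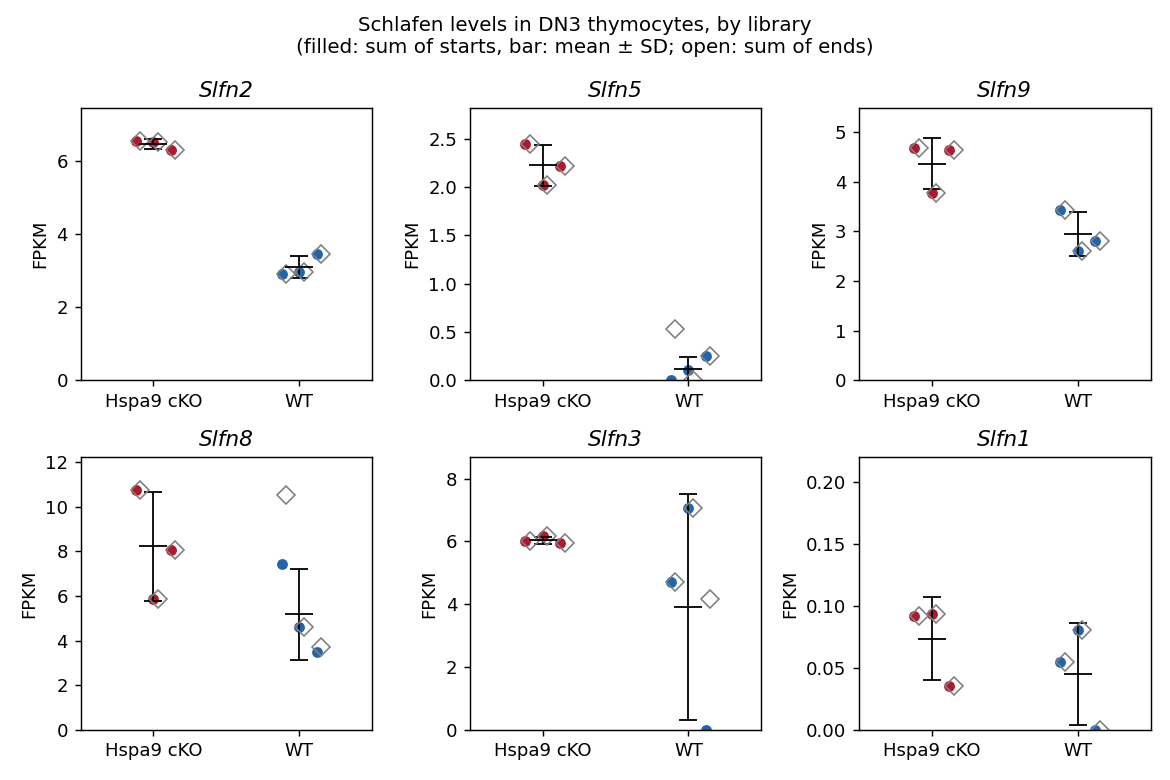
Level in FPKM (vertical axis, starting at 0, scale differing between panels) of the 6 listed Schlafen genes in 3 Hspa9 cKO and 3 WT libraries; filled points are summed starts with their mean ± SD, and open diamonds are summed ends. The groups do not overlap for Slfn2, Slfn5 and Slfn9; the Slfn3 point at 0 is WT replicate 3, which lists an end at 4.15 FPKM and no start.

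Slfn9 (ENSMUSG00000069793, chr11:82978390-82991830, minus strand), a long-form member of the mouse cluster, had 4.68, 3.77 and 4.64 FPKM in Hspa9 cKO libraries, against 3.44, 2.60 and 2.81 FPKM in WT libraries. The lowest Hspa9 cKO library lay just above the highest WT library. The means were 4.37 ± 0.516 FPKM in Hspa9 cKO cells and 2.95 ± 0.437 FPKM in WT cells (SD, n = 3 each). The log2 change was 0.44 ± 0.13 (SE; 95% interval 0.12 to 0.77), with a limma p of 0.0158 before and 0.0807 after adjustment over all genes. The difference therefore did not pass the threshold.

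Slfn8 (ENSMUSG00000035208, chr11:83002158-83020810, minus strand), the neighbouring long-form member, had the highest mean of the family in Hspa9 cKO cells, with 10.7, 5.87 and 8.09 FPKM, against 7.46, 4.62 and 3.48 FPKM in WT libraries. The groups overlapped, with WT replicate 1 above Hspa9 cKO replicate 2. The means were 8.23 ± 2.44 FPKM in Hspa9 cKO cells and 5.18 ± 2.05 FPKM in WT cells (SD, n = 3 each). The log2 change was 0.59 ± 0.29 (SE; 95% interval -0.12 to 1.31), with a limma adjusted p of 0.225. It was 0.39 without WT replicate 3 and 0.85 without WT replicate 1. The summed ends were the same as the starts in every library except WT replicates 1 and 3, which had 10.5 and 3.69 FPKM at the end.

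The sum hides a split between the 2 listed Slfn8 starts, which lie 614 bases apart. The upstream start, at position 83020722, had 5.49, 2.41 and 3.25 FPKM in Hspa9 cKO libraries, against 0.700, 1.08 and 0.980 FPKM in WT libraries. The downstream start, at position 83020108, had 5.26, 3.46 and 4.83 FPKM in Hspa9 cKO libraries, against 6.76, 3.54 and 2.50 FPKM in WT libraries. The upstream values did not overlap between the groups (means 3.72 ± 1.59 FPKM in Hspa9 cKO cells and 0.919 ± 0.196 FPKM in WT cells, SD, n = 3 each), whereas the downstream values did (4.52 ± 0.941 FPKM in Hspa9 cKO cells and 4.27 ± 2.22 FPKM in WT cells). The upstream start held 51.1%, 41.1% and 40.2% of the Slfn8 start FPKM in Hspa9 cKO libraries, against 9.39%, 23.3% and 28.2% in WT libraries. All 3 Hspa9 cKO shares exceeded all 3 WT shares. The split was picked after the values had been seen and was given no test. By gene level, all 3 Hspa9 cKO libraries lay above all 3 WT libraries for 23.2% of all tested genes. The same share over single start events was not computed. The response element match in the Slfn8 sequence above begins 136 bases before the upstream start and 750 bases before the downstream start.

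Slfn9 and Slfn5 also have a pair of listed starts each, and in both genes nearly all FPKM sat at one of them. The Slfn9 start at 82991137 had 4.68, 3.59 and 4.64 FPKM in Hspa9 cKO libraries, against 3.44, 2.60 and 2.60 FPKM in WT libraries. Its upstream start, 693 bases away at 82991830, which is the RefSeq start that the printed window precedes, was listed only in Hspa9 cKO replicate 2 at 0.184 FPKM and in WT replicate 3 at 0.207 FPKM. The motif match thus lies 738 bases before the start that carries most Slfn9 FPKM. The main Slfn5 start, at 82952095 and 7 bases from the RefSeq start, had 2.30, 1.65 and 2.14 FPKM in Hspa9 cKO libraries, against 0, 0.101 and 0.241 FPKM in WT libraries. The second Slfn5 start, 2566 bases downstream, had 0.147, 0.375 and 0.0839 FPKM in Hspa9 cKO libraries and in WT libraries was listed only in replicate 3, at 0.00772 FPKM.

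**Figure D2:**
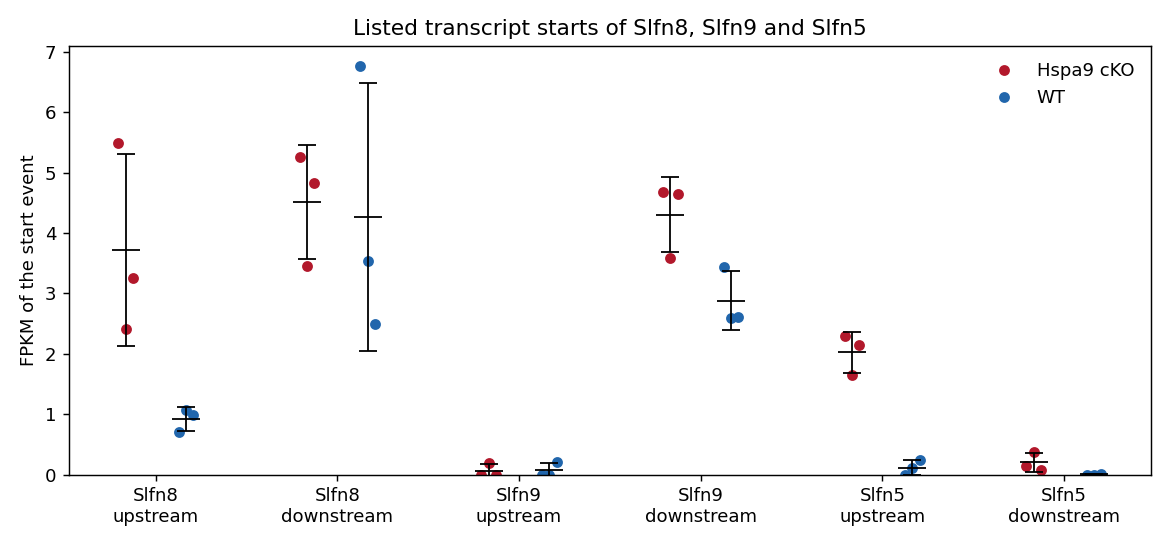
FPKM of each listed start (vertical axis) of Slfn8, Slfn9 and Slfn5, with Hspa9 cKO libraries left of WT libraries; points are libraries and bars are mean ± SD. At the upstream Slfn8 start the 3 Hspa9 cKO libraries sit between 2.41 and 5.49 FPKM and the 3 WT libraries between 0.700 and 1.08 FPKM, while the downstream Slfn8 start overlaps between the groups.

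Slfn3 (ENSMUSG00000018986, chr11:83191330-83215154, plus strand), an intermediate member, had 6.0003, 6.16 and 5.96 FPKM in Hspa9 cKO libraries. In WT libraries its start had 4.69 and 7.08 FPKM in replicates 1 and 2 and was not listed in replicate 3, whose end had 4.15 FPKM. WT replicate 2 was above, and the other WT libraries below, all Hspa9 cKO libraries. From starts, the log2 change was 0.97 ± 0.76 (SE; limma adjusted p = 0.431), and that value rests on the unlisted start: without WT replicate 3 it was 0.05, and from ends it was 0.19. From ends the means were 6.04 ± 0.108 FPKM in Hspa9 cKO cells and 5.31 ± 1.56 FPKM in WT cells (SD, n = 3 each).

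Slfn1 (ENSMUSG00000078763, chr11:83116849-83122670, plus strand), the founding short member, had 0.0920, 0.0935 and 0.0349 FPKM in Hspa9 cKO libraries, against 0.0548, 0.0806 and 0 FPKM in WT libraries. No library reached the filter of 1 FPKM, so the gene was not tested, and the groups overlapped. Slfn4 (ENSMUSG00000000204, chr11:83175186-83190216, plus strand), an intermediate member known from mouse myeloid cells, was listed in no library under any event, and an unlisted gene is not shown to be silent. Summed over the 7 genes, the starts came to 30.5, 24.4 and 27.2 FPKM in Hspa9 cKO libraries, against 18.5, 17.4 and 9.99 FPKM in WT libraries. With the end taken where a library lists no start, the WT sums were 19.1, 17.4 and 14.1 FPKM. Every Hspa9 cKO sum was above every WT sum both ways.

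**Figure D3:**
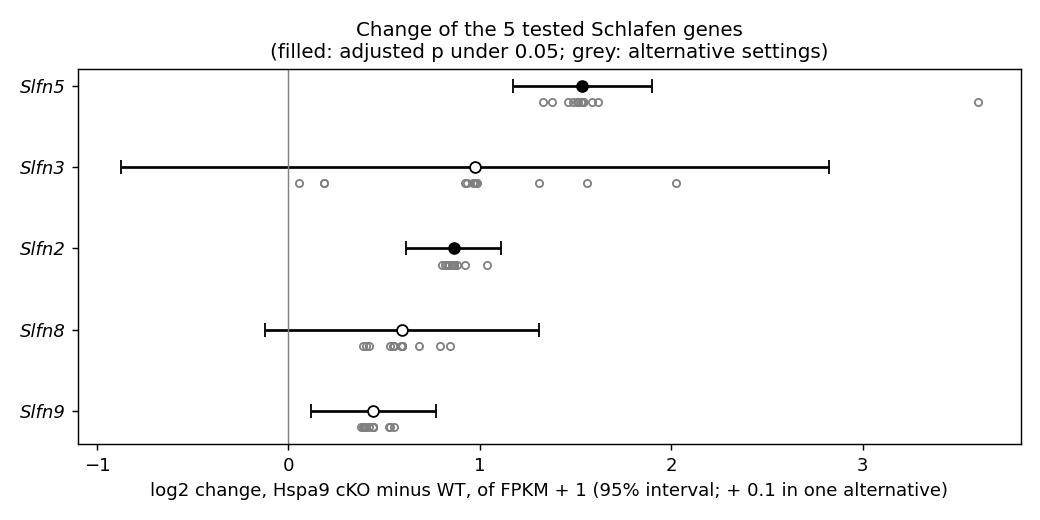
Log2 change of FPKM + 1, Hspa9 cKO minus WT (horizontal axis), of the 5 tested Schlafen genes, with 95% intervals; filled points have an adjusted p under 0.05, and grey circles beneath are alternative settings. The grey circle at 3.60 for Slfn5 uses a pseudocount of 0.1, and the Slfn3 circles run from 0.05 to 2.02.

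By mean level in Hspa9 cKO cells the order was Slfn8, Slfn2, Slfn3, Slfn9, Slfn5 and Slfn1. The Slfn8 libraries ran from 5.87 to 10.7 FPKM and so took in those of Slfn2 and Slfn3; the lowest Slfn2 library, at 6.29 FPKM, lay just above the highest Slfn3 library, at 6.16 FPKM, and Slfn9, Slfn5 and Slfn1 each stood clear of their neighbours. In WT cells, with ends for Slfn3, the libraries of Slfn3 and Slfn8 overlapped at the top, those of Slfn2 (2.89 to 3.45 FPKM) and Slfn9 (2.60 to 3.44 FPKM) overlapped below them, and Slfn5 stood under all of these. The order is a description of levels and was not tested.

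Splicing events added detail for 4 of the genes. In Slfn5, transcripts that include the exon at chr11:82954717-82954782 had 1.87, 1.64 and 1.45 FPKM in Hspa9 cKO libraries, against 0, 0 and 0.240 FPKM in WT libraries, and transcripts that skip it had 0.428, 0.00211 and 0.693 FPKM in Hspa9 cKO libraries, against 0, 0.101 and 0.00150 FPKM in WT libraries. Inclusion was the larger form in each Hspa9 cKO library. In Slfn8, transcripts from the upstream start that skip the exon at chr11:83019913-83020028 had 1.96, 1.55 and 2.69 FPKM in Hspa9 cKO libraries, against 0.700, 0.762 and 0.550 FPKM in WT libraries, and those that include it had 3.53, 0.854 and 0.565 FPKM in Hspa9 cKO libraries, against 0, 0.315 and 0.430 FPKM in WT libraries. Both forms were higher in every Hspa9 cKO library than in any WT library. Together they make up the upstream start, so this restates its difference. For inclusion the gap was small, with 0.565 FPKM in Hspa9 cKO replicate 3 against 0.430 FPKM in WT replicate 3. Elsewhere in Slfn8, skipping of the exon at chr11:83004057-83004780 was listed in no Hspa9 cKO library and in WT libraries at 3.78, 0 and 0.233 FPKM, so WT replicate 1 stood apart there too.

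In Slfn3, skipping of the exon at chr11:83194043-83194209 had 4.22, 3.90 and 3.66 FPKM in Hspa9 cKO libraries, against 3.16 and 4.61 FPKM in WT replicates 1 and 2, and inclusion had 1.78, 2.26 and 2.29 FPKM in Hspa9 cKO libraries, against 1.54 and 2.47 FPKM in WT replicates 1 and 2. Skipping was the larger form in each of these 5 libraries, and WT replicate 3 listed neither. In Slfn9, a shorter form of an internal exon, chr11:82987239-82988025, was listed only in Hspa9 cKO replicate 3, at 0.606 FPKM.

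Schlafen transcripts resemble one another, so reads may be divided wrongly among them. Of all stretches of 50 bases in its annotated transcripts, Slfn8 shared 14.58% and Slfn9 11.24% with another Schlafen gene, mostly the pseudogene Slfn10-ps, Slfn3 7.39% and Slfn2 4.27%, both with Slfn4, and Slfn5 none. With stretches of 100 bases the share was 3.38% for Slfn8, 3.71% for Slfn9, 0.13% for Slfn2 and none for Slfn5. The labels do not state the read length or how shared reads were assigned, so the split between Slfn8, Slfn9 and Slfn10-ps is uncertain.

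Slfn10-ps (chr11:83028130-83040042, minus strand), Slfn14 and Slfnl1, the other Schlafen genes of the annotation, were not listed under their own IDs. Events on exons of Slfn10-ps are carried in the tables under Gm20234, the gene antisense to Slfn2. Their start lies inside Slfn2 on the minus strand at 83067263, 2151 bases from the Slfn2 start, and is joined to exons of Slfn10-ps at chr11:83035119-83036182 and chr11:83032184-83032318. It had 2.01, 1.60 and 3.27 FPKM in Hspa9 cKO libraries, against 0.579, 1.12 and 0 FPKM in WT libraries. The groups did not overlap, and no test was made on it. By gene level, 23.2% of all tested genes also had all 3 Hspa9 cKO libraries above all 3 WT libraries.

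The interferon-stimulated genes, the class to which several Schlafen genes belong, give the setting of these values. Of 45 genes on a list of them outside the family 37 were tested, 30 rose in Hspa9 cKO cells, none fell and 7 did not pass. Among all 8883 tested genes 8.34% were called higher. Of the 30, Ifit3, Ifi44, Rsad2, Mx1, Oas1g and Cmpk2 passed the filter on low values only through their Hspa9 cKO libraries. The median log2 change of the list was 1.06, against 0.86 for the 5 tested Schlafen genes and 0.06 for all tested genes. The Schlafen median rests on the Slfn3 change of 0.97 from starts. With the end taken in a library that lists no start, Slfn3 changed by 0.19 and the middle Schlafen value was 0.59, that of Slfn8. Ifit1, which binds foreign RNA caps, averaged 9.69 ± 0.124 FPKM in Hspa9 cKO cells and 1.62 ± 0.0818 FPKM in WT cells (SD, n = 3 each; log2 change 2.03, limma adjusted p = 0.000454). Oasl2, an oligoadenylate synthetase-like protein, averaged 17.4 ± 3.05 FPKM in Hspa9 cKO cells and 3.03 ± 0.389 FPKM in WT cells (SD, n = 3 each; log2 change 2.18, limma adjusted p = 0.00143). Zbp1, which senses nucleic acid in the Z form, had 22.2, 21.2 and 22.7 FPKM in Hspa9 cKO libraries, against 9.69, 9.95 and 10.5 FPKM in WT libraries (log2 change 1.06, limma adjusted p = 0.00138). The list was drawn up with earlier results of these data known, so its direction is not independent evidence.

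Of 14 tested genes for interferon receptors, JAK kinases, STAT and IRF factors, out of 20 on the list, 4 rose, none fell and 10 did not pass. Irf9, the DNA-binding subunit of the complex at the response element, averaged 26.7 ± 4.36 FPKM in Hspa9 cKO cells and 11.05 ± 0.572 FPKM in WT cells (SD, n = 3 each; log2 change 1.19, limma adjusted p = 0.00561). Irf7, which amplifies type I interferon production, averaged 19.6 ± 5.73 FPKM in Hspa9 cKO cells and 4.54 ± 1.89 FPKM in WT cells (SD, n = 3 each; log2 change 1.92, limma adjusted p = 0.0183); its call was lost without Hspa9 cKO replicate 1 (adjusted p = 0.0618) and without Hspa9 cKO replicate 3 (adjusted p = 0.0664). Ifngr1, a chain of the interferon gamma receptor, was called at a log2 change of 0.90, but only 0.25 from its ends, and the call was lost whichever library was left out, with adjusted p from 0.0512 to 0.102. Stat3 was the fourth, at a log2 change of 0.33 (limma adjusted p = 0.0382). Its call was lost from ends and under rescaling by trimmed means of log ratios or by median ratios. It was also lost when any library other than WT replicate 3 was left out.

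**Figure D4:**
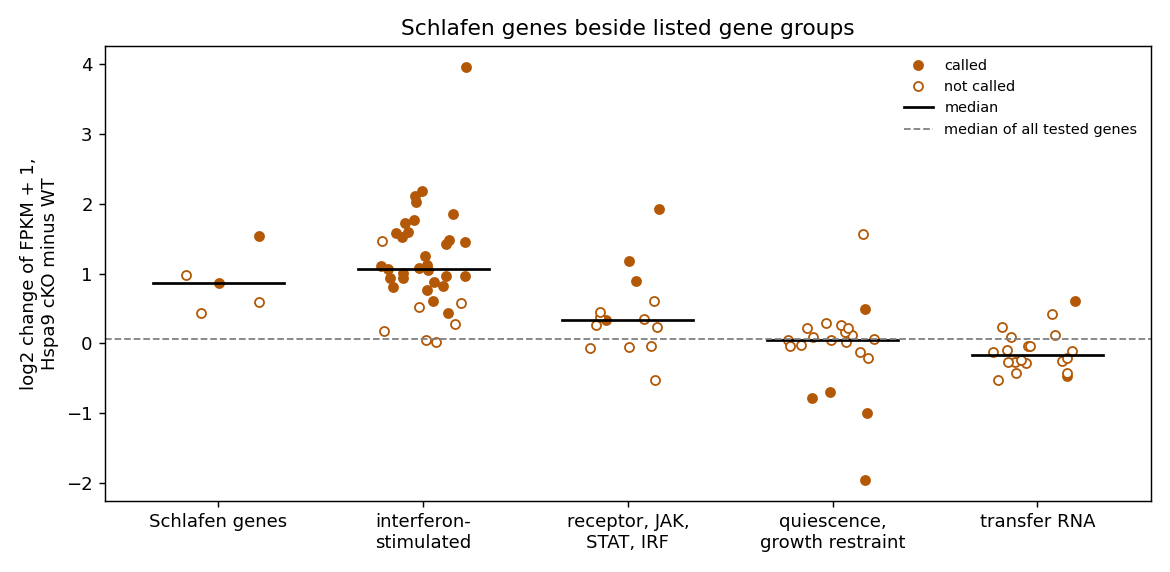
Log2 change of FPKM + 1, Hspa9 cKO minus WT (vertical axis), of the tested Schlafen genes and of the tested genes of 4 gene lists; each point is a gene, filled where the adjusted p is under 0.05, with the group median as a bar and the median of all tested genes as a dashed line. The medians are 0.86 for Schlafen genes and 1.06 for interferon-stimulated genes, and the quiescence and transfer RNA groups lie at 0.05 and -0.16. The Schlafen median rests on the Slfn3 change from starts, 0.97, which was 0.19 from ends.

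Genes of the processes in which Schlafen proteins act had group medians of 0.05 for quiescence and -0.16 for transfer RNA, against 0.06 for all tested genes. Of 21 tested genes for lymphocyte quiescence and growth restraint, out of 26 on the list, 1 rose, 4 fell and 16 did not pass, with a median log2 change of 0.05. Klf4, a zinc finger factor that restrains T cell proliferation, averaged 1.67 ± 0.0682 FPKM in Hspa9 cKO cells and 9.38 ± 1.05 FPKM in WT cells (SD, n = 3 each; log2 change -1.96, limma adjusted p = 0.000953). Klf6, of the same family, averaged 9.32 ± 0.435 FPKM in Hspa9 cKO cells and 19.6 ± 1.15 FPKM in WT cells (SD, n = 3 each; log2 change -0.997, limma adjusted p = 0.00223). Cdkn2c, an inhibitor of CDK4 and CDK6, averaged 2.75 ± 0.112 FPKM in Hspa9 cKO cells and 5.47 ± 0.308 FPKM in WT cells (SD, n = 3 each; log2 change -0.79, limma adjusted p = 0.00694). Tob1, an antiproliferative protein, was the fourth to fall, at -0.69 (limma adjusted p = 0.0178). Its call was lost when any library other than WT replicate 2 was left out, whereas Klf4, Klf6 and Cdkn2c stayed called each time. Klf2, which keeps naive T cells quiescent, was called at a log2 change of 0.49 (limma adjusted p = 0.0425), a call lost whichever library was left out, with adjusted p from 0.068 to 0.127. Slfn2 thus rose while Klf4, Klf6, Cdkn2c and, with a less stable call, Tob1 fell in the same libraries.

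Of 20 tested genes for cleavage and processing of transfer RNA, the substrate of several Schlafen proteins, out of 24 on the list, 1 rose, 1 fell and 18 did not pass, with a median log2 change of -0.16. Their summed levels were 274 to 282 FPKM in Hspa9 cKO libraries and 308 to 335 FPKM in WT libraries. Under rescaling by trimmed means of log ratios or by median ratios, 3 of these genes were called lower. Elac1, which in human cells takes part in transfer RNA repair, changed by 0.61 on the log2 scale (limma adjusted p = 0.0319), and Pop1, a subunit of RNase P, by -0.47 (limma adjusted p = 0.0234). Elac1 kept its call only when Hspa9 cKO replicate 3 was the library left out (otherwise adjusted p up to 0.0991), and Pop1 only when it was WT replicate 3 (otherwise up to 0.077). Ang and Ang2, angiogenin genes, were not listed.

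By Pearson correlation of log2 levels over the 6 libraries, among 6381 tested genes with a mean of at least 5 FPKM, the genes most like Slfn5 were Cd3g, Tmem50b, Cd53, Fam163b and Zbp1, with r from 0.997 to 0.999. All 5 were called higher in Hspa9 cKO cells, and with 2 separate groups such an r mostly restates the group difference. The genes most like Slfn8, whose libraries also vary within groups, were Tigd2, BC031181, Ss18, Egr1 and Sec23a, with r from 0.965 to 0.978, and none of these was called.

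The labelled cell type was checked against its markers. Of 16 tested DN3 markers 7 rose, 1 fell and 8 did not pass; Il2ra, which encodes CD25, had 381, 367 and 383 FPKM in Hspa9 cKO libraries, against 158, 155 and 145 FPKM in WT libraries, and Ptcra, the pre-T cell receptor alpha chain, 147, 142 and 154 FPKM in Hspa9 cKO libraries, against 75.5, 57.9 and 84.9 FPKM in WT libraries. Gata3 was not listed, and Lck was listed only in WT replicate 1, at 0.545 FPKM. Tcf7, a transcription factor of the T lineage, fell, with 316, 264 and 262 FPKM in Hspa9 cKO libraries, against 596, 415 and 440 FPKM in WT libraries (log2 change -0.77, limma adjusted p = 0.0288). Some DN3 markers thus differed between the groups, in both directions, and a change in the share of cells at this stage and a change of RNA per cell cannot be told apart in bulk libraries.

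Markers of other cell types were read in the same libraries. Of 18 myeloid markers 9 were listed, with summed levels of 15.1 to 16.6 FPKM in Hspa9 cKO libraries and 10.1 to 17.0 FPKM in WT libraries, almost all of it Lyz2, and Itgam, Adgre1, Csf3r, Mpo and Elane were not listed. Of 11 natural killer and innate lymphoid markers 4 were listed, with sums of 58.3 to 62.9 FPKM in Hspa9 cKO libraries and 30.1 to 34.0 FPKM in WT libraries, nearly all of it Nkg7, which rose, while Ncr1, Klrb1c and Eomes were not listed. Of 11 B cell markers 4 were listed (sums of 78.6 to 84.3 FPKM in Hspa9 cKO libraries and 52.6 to 108 FPKM in WT libraries), with Cd79b called higher, and of 13 dendritic cell markers 6 were listed (79.8 to 83.0 FPKM in Hspa9 cKO libraries and 74.5 to 82.7 FPKM in WT libraries), with none called. Of 10 stromal markers 3 were listed (62.5 to 69.6 FPKM in Hspa9 cKO libraries and 48.0 to 51.9 FPKM in WT libraries), with Epcam called higher and Foxn1 not listed. Of 9 erythroid markers 5 were listed (22.2 to 26.1 FPKM in Hspa9 cKO libraries and 37.2 to 45.4 FPKM in WT libraries), with Hba-a2 and Hbb-bt called lower.

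Markers of the neighbouring stages were also read. Of 12 markers of the earlier DN1 and DN2 stages 10 were listed, 2 were tested and none was called (sums of 8.68 to 10.8 FPKM in Hspa9 cKO libraries and 9.11 to 11.7 FPKM in WT libraries). Of 15 markers of the later double-positive and single-positive stages 14 were listed and 12 tested, of which 3 fell, Cd8b1 and Cd69 among them, and none rose (220 to 348 FPKM in Hspa9 cKO libraries and 282 to 306 FPKM in WT libraries). The part of these marker changes in the Schlafen values was not tested.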

How the data were processed

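RNA was sequenced from DN3 thymocytes in 3 Hspa9 cKO and 3 WT libraries, grouped by their titles. Per the labels' protocols, mRNA was obtained by poly(A) selection or removal of ribosomal RNA (both are named), followed by random priming. Trimming used cutadapt 1.9.1 and the build was mm10, per the submitters' processing notes. Aligner, assembler, event caller, annotation and strandedness: not given in the sources used here. The deposited values are FPKM per transcript event, per the file headers; no counts are held, so depth is unknown and count tests were not used.

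Each gene was given the sum of FPKM over its distinct start events (ends where no library lists a start) that carry its Ensembl ID and whose edge lies inside the gene in GENCODE M21; 24452 of 27390 start events, with 89.9% of start FPKM, met this. Genes that reached 1 FPKM in 3 libraries were tested as log2(FPKM + 1) with limma 3.58.1 (R 4.3.3; trended, robust variances; two-sided; Benjamini-Hochberg adjustment over all 8883 genes; threshold 0.05), which also understates the changes of low genes. The script was tested on simulated data. Single values were tested with exact permutation tests. Named were all 7 members, the other Schlafen genes, Hspa9, the 3 called genes with the smallest adjusted p per list and direction, and the 5 genes most correlated with Slfn8 and Slfn5; further genes named were chosen after their values were seen. Members and lists were chosen with earlier results of these data known. A few genes of the lists are not reported here by name. Promoters came from RefSeq (GRCm38.p6) and were aligned with Biopython 1.88. Alternatives were another pseudocount, filters, rescaling, ends, other event assignments, plain variances, a replicate block and leaving out each library.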

Additional observations from a re-analysis of the deposited data

Results flagged for a closer look

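A start event under the Gm20234 gene ID, outside the genes that were tested here, was higher in all 3 Hspa9 cKO libraries than in the WT libraries, with means of 2.29 ± 0.867 FPKM in Hspa9 cKO cells and 0.567 ± 0.562 FPKM in WT cells (SD, n = 3 each). The event was flagged because its lowest Hspa9 cKO value exceeded its highest WT value, so the gap was set by the choice. It lies inside Slfn2 on the opposite strand and is joined to exons of Slfn10-ps. A second start at that locus, at 83036166, was listed only in Hspa9 cKO replicate 1, at 1.56 FPKM. Whether any of its reads come from Slfn2, Slfn8 or Slfn9 was not tested.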

How the results depend on the processing

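Each result was recomputed under up to 17 alternatives, of which 1, taking the end in a library that lists no start, was chosen after seeing the data. Slfn5 was called higher in all 16 alternatives in which it was tested and Slfn2 in 16 of 17. Slfn3, Slfn8 and Slfn9 were called in none, and no tested member changed direction. Not every alternative could change a value. Slfn2 has the same levels from starts, from ends and under each event assignment. Slfn5 has the same levels from starts, with no position check and by exon edge. The same replicate numbers did not deviate together (correlations 0.00522, -0.0303 and -0.0209), and the labels do not pair the libraries. With 3 libraries a group, such correlations cannot exclude a pairing. With the replicate block, 220 genes were called in place of 1256. There Slfn2 kept its log2 change of 0.86 with a limma adjusted p of 0.0538, and 1 Schlafen member was called in place of 2. Of the lists, 21 genes were called in place of 41, among them 17 interferon-stimulated genes called higher in place of 30. With a filter of 5 FPKM 1 member was called, since Slfn5 and Slfn9 were not tested there. Leaving out 1 library gave 489 to 816 called genes. Rescaling changed the balance of directions, from 741 genes higher and 515 lower to 572 higher and 694 lower by trimmed means of log ratios, and to 589 higher and 653 lower by median ratios; both members stayed called. The change of Hspa9, never called, was -0.061 and -0.048 under these rescalings and, with 1 library left out, ran from -0.057 (without WT replicate 1) to 0.054, with -0.030 without Hspa9 cKO replicate 2. For the other named genes and list counts, 443 comparisons with an alternative kept their direction and side of the threshold or, for counts, stayed within 1.5 times, 43 kept the direction and lost the call, and 51 counts moved by over 1.5 times. The limits are 3 libraries a group, unknown depth, WT values of Slfn5 near 0, and starts that some tables do not list.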
